A study of Mus musculus with 6 samples.

Results

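The major histocompatibility complex (MHC) and antigen presentation genes of mouse liver were followed through the loss of Pak4, a serine/threonine kinase, from hepatocytes. The set was defined by name as every row of the deposited gene table whose symbol starts with H2- (41 rows), plus B2m, Tap1, Tap2, Tapbp, Psmb8, Psmb9, Psmb10, Nlrc5, Ciita and Cd74. This gave 51 of 45777 genes, of which 30 are class I heavy chain genes, 8 act in class I assembly and peptide supply or control class I transcription, 12 belong to class II, and H2-Ke6, a metabolic enzyme gene named for its place, belongs to neither. The mice were C57BL/6, 10 weeks old, and RNA was taken from liver tissue. The WT group (3 libraries) carried floxed Pak4 on both alleles, written Pak4 flox/flox, with no Cre in its label. The Pak4_KO group (3 libraries) was Alb-Cre; Pak4 flox/flox, in which the albumin promoter drives Cre recombinase in hepatocytes. The labels call it a hepatocyte-specific Pak4 KO, and which cells of the liver kept Pak4 was not measured here. Both groups carry the floxed alleles, and Alb-Cre without them was not analysed here. Nothing in the labels says which libraries came from which animals, so the tests measure the spread between libraries.

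Libraries held 39603272 to 52521400 reads, and levels are given as CPM (reads scaled to library size, with TMM factors that correct for library composition) or, between genes, as the deposited TPM, which also corrects for transcript length. Pak4 itself (NCBI gene 70584) stood at 5.93, 7.15 and 6.44 CPM in the WT libraries and 1.37, 2.24 and 1.90 CPM in the Pak4_KO libraries, a log2 fold change of -1.82 ± 0.24 (SE) with adjusted p = 0.0169 by edgeR's quasi-likelihood test with Benjamini-Hochberg adjustment. The liver label held against its markers: all 8 hepatocyte markers searched had reads in each library, with Alb at 23248 CPM or more. In a first principal component of all genes the groups lay apart, and WT replicate 3 and Pak4_KO replicate 1 lay farthest from the rest of their groups on the second.

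Class I molecules sit on nearly all nucleated cells and show peptides from inside the cell to CD8+ T cells. Each is a heavy chain, encoded in the mouse by H2-K1, H2-D1 and their relatives, bound to the small β2-microglobulin chain encoded by B2m. The peptides are cut by the proteasome, whose interferon-inducible subunits Psmb8, Psmb9 and Psmb10 replace constitutive subunits, carried into the endoplasmic reticulum by the transporter Tap1/Tap2, and loaded with the help of tapasin (Tapbp). Class II molecules are made mainly by dendritic cells, B cells and macrophages, show peptides from the endosome to CD4+ T cells, and travel with the invariant chain Cd74. Nlrc5 is the transactivator of class I genes and Ciita that of class II genes. Both act through a shared promoter module, the SXY module, whose X boxes and Y box are bound by RFX, CREB/ATF and NF-Y factors. In liver, hepatocytes make class I and, from H2-Q10, a secreted class I protein typical of this organ.

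The promoters of 7 members are printed to show which matches to the modules of class I and class II genes each of them holds. H2-Q10 is among them as a gene without an X box or Y box match. Of H2-K1, which has 2 windows, that of the downstream start is shown. Windows of 300 bases (250 before and 50 after the RefSeq start, GRCm38.p6) existed for 38 of the 51 members and are credited to RefSeq. Capitals mark matches, on either strand, to CCAAT (Y box), AGCAAC (core of the X1 box), TGACG (core of the X2 box, which is also the core of a CRE site), GAANNGAAA (core of the interferon-stimulated response element) and GGGNNTTCC (NF-kB). The first 3 are class I heavy chain genes of the classical and Qa types.
H2-K1 promoter, chr17:34000284-34000583, minus strand: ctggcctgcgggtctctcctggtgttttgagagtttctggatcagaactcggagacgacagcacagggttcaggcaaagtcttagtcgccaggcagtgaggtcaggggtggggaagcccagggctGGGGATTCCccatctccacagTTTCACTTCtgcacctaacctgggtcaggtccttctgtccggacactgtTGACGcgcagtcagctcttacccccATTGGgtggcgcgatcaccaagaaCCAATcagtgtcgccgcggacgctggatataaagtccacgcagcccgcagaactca
H2-D1 promoter, chr17:35262844-35263143, plus strand: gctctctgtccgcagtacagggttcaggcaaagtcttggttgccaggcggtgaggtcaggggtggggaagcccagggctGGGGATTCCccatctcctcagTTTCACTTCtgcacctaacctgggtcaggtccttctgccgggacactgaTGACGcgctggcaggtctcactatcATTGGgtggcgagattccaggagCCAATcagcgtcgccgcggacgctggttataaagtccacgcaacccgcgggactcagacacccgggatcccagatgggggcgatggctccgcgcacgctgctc
H2-Q7 promoter, chr17:35438905-35439204, plus strand: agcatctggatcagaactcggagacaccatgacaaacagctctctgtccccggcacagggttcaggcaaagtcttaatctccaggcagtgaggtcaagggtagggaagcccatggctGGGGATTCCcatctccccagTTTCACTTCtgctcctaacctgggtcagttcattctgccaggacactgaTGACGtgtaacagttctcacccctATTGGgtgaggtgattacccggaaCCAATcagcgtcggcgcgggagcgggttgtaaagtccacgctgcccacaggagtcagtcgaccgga
The next is the secreted, liver-rich class I gene.
H2-Q10 promoter, chr17:35469839-35470138, plus strand: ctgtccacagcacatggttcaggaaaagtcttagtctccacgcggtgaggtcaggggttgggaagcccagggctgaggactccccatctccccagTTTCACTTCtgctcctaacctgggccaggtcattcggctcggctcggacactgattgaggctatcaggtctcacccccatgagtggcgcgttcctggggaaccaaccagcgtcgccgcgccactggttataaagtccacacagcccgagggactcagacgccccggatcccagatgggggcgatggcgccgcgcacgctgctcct
The last 3 are the light chain of class I and the genes of 2 class II chains, of which the β chain of H2-E is shown for its X1 match.
B2m promoter, chr2:122147437-122147736, plus strand: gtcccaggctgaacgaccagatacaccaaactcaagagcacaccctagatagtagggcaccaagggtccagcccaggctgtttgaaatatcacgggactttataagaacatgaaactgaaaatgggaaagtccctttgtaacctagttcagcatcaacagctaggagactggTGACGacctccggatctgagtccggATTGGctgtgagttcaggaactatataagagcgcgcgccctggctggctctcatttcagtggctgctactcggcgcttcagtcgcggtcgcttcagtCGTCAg
H2-Aa promoter, chr17:34287774-34288073, minus strand: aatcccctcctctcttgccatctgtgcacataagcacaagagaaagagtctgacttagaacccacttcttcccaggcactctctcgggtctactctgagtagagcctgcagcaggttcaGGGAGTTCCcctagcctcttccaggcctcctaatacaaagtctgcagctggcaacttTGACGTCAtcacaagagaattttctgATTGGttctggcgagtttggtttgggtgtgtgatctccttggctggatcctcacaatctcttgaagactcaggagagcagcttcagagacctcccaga
H2-Eb1 promoter, chr17:34305617-34305916, plus strand: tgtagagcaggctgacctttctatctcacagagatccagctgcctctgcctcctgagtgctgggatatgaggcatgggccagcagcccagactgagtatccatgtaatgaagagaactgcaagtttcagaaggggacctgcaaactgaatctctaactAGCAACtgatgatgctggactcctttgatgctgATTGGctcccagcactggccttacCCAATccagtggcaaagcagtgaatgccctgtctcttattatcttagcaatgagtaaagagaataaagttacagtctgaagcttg

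H2-K1, H2-D1 and H2-Q7 held the same 4 kinds of match in the same order, an NF-kB match, an inverted interferon element, an X2 core and an inverted Y box, with a further upright Y box behind these. H2-Q10 kept only the interferon element of these. The NF-kB and interferon matches began 20 to 21 bases apart in H2-K1, H2-D1, H2-Q4, H2-Q6 and H2-Q7, and in 5 of 27025 genes with a window in all, so that no gene outside the set held it. The X2 core and the inverted Y box began 24 to 26 bases apart in H2-K1, H2-D1, H2-Q7, H2-M3, B2m and the class II gene H2-Aa, 6 of 38 members (15.8%) against 33 of 27025 genes (0.122%). Both distances were set after the sequences were seen, and the heavy chain genes are copies of each other, so these shares are a description. Singly, the Y box was in 33 of 38 members (86.8%) and 41.1% of all genes with a window, and in each of the 8 class II members with a window. The interferon letters searched were in 8 (21.1%, against 8.68%), all of them heavy chain genes, and the NF-kB match in 8 (21.1%, against 6.58%). Only these exact letters were searched, so other forms of both elements were not counted. A window without a match, such as that of B2m, is therefore not shown to lack these elements. The X2 core was in 15 (39.5%, against 23.05%). Over all members the X1 core, in 7 (18.4%, against 16.7%), lay near the share of all genes. By class it was in 4 of 8 class II members (50%), 3 of 23 heavy chain genes (13.0%) and 0 of 6 class I assembly and proteasome genes. In H2-Aa the TGACG matches of both strands overlap. The windows of Psmb9 and Tap1, which lie head to head, overlap by 275 bases, so both genes share 1 promoter region.

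Liver RNA held far more class I than class II transcript. By TPM, the highest members were H2-Q10, the secreted class I gene (1571 ± 273 TPM in WT and 1461 ± 140.3 TPM in Pak4_KO, SD, n = 3), B2m (1521 ± 119.5 TPM in WT and 1239 ± 73.7 TPM in Pak4_KO) and H2-K1 (1188 ± 79.1 TPM in WT and 1011 ± 68.6 TPM in Pak4_KO). H2-D1 followed at 597 ± 50.6 TPM in WT and 524 ± 34.6 TPM in Pak4_KO, and H2-T23, which encodes the Qa-1 molecule that presents leader peptides of other class I chains, at 199 ± 3.02 TPM in WT and 179.6 ± 21.8 TPM in Pak4_KO. The WT libraries of H2-Q10 and B2m overlapped, so the order of these genes is not firm, while H2-K1 lay below both in each library. H2-Q10, H2-K1 and H2-D1 gave 88.6% to 89.5% of the summed class I heavy chain TPM in the 6 libraries. The highest class II member was Cd74 (79.9 ± 24.5 TPM in WT and 63.7 ± 7.76 TPM in Pak4_KO), then H2-Aa (37.8 ± 12.4 TPM in WT and 30.03 ± 5.44 TPM in Pak4_KO), which with H2-Ab1 forms the H2-A molecule of these mice. Summed heavy chain TPM was 35.4 to 66.8 times the summed TPM of the class II chains. The class I transactivator Nlrc5 was at 14.4 ± 1.43 TPM in WT and 15.97 ± 1.16 TPM in Pak4_KO, within the range of the transporter and proteasome genes. The class II transactivator Ciita was at 0.320 ± 0.143 TPM in WT and 0.315 ± 0.122 TPM in Pak4_KO, with H2-Ob the only tested class II gene below it in mean WT level.

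**Figure D1:**
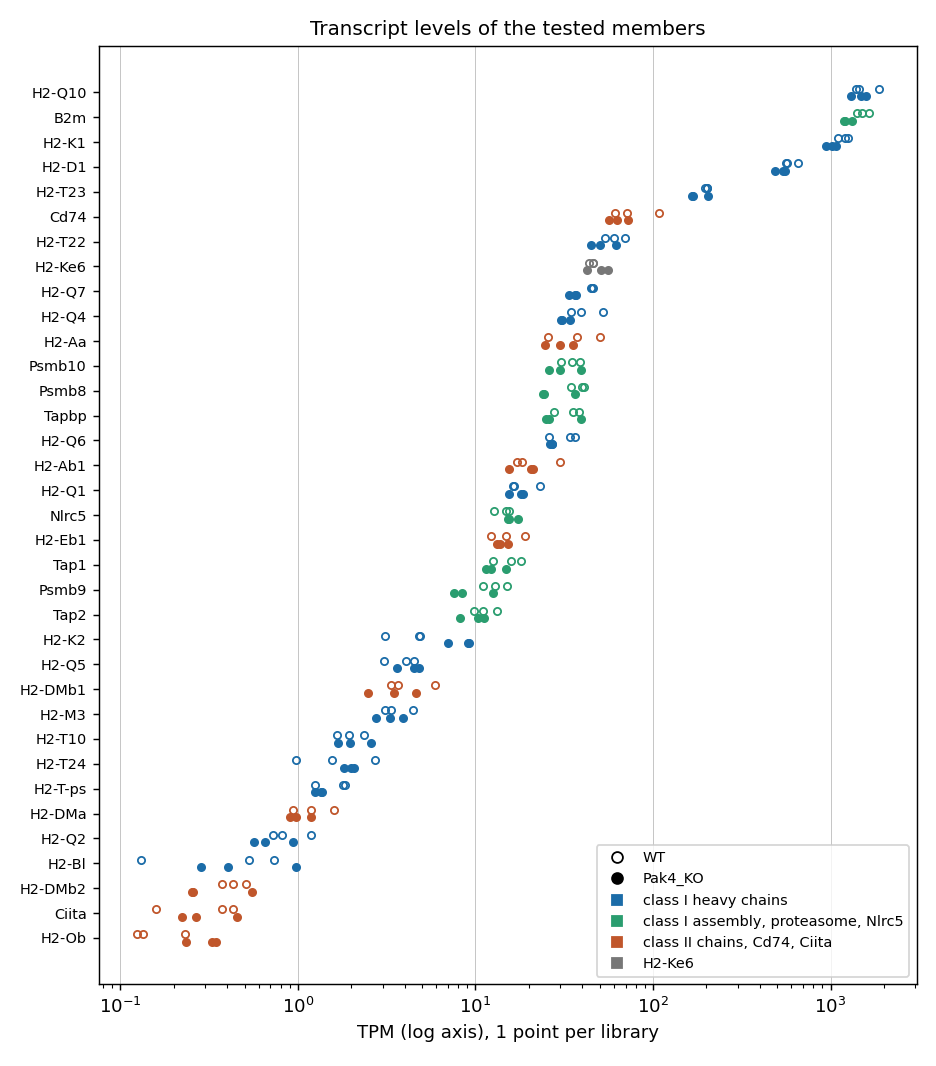
TPM (log axis) of the 35 tested members, 1 point per library, open for WT and filled for Pak4_KO, coloured by class. H2-Q10, B2m, H2-K1 and H2-D1 lie above the others, and Cd74 is the highest class II member.

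No member passed the test between the genotypes. Of the 51 members, 35 had enough reads to be tested, and 0 of these were called at an edgeR adjusted p under 0.05, where 76 of 16197 genes (0.469%) were called over the table (0.204% lower and 0.265% higher). At an unadjusted p under 0.05, reached by 8.21% of all tested genes in either direction, there were 6 members lower in Pak4_KO, where 3.69% of all tested genes were, and 1 higher, where 4.51% were. DESeq2's Wald test called 1 member, H2-K2, where it called 2.06% of all genes. In simulated data the edgeR test called 8% of genes changed 1.5-fold. Those genes were drawn at random from all tested genes, so the share at the members' own levels was not measured. Members left uncalled are not shown to be unchanged. The fold changes were small and mostly on the same side. A log2 fold change below 0 was found for 28 of 35 members (80%), against 49.3% of all tested genes, with a median of -0.26 against 0.0045. The medians were -0.23 over 17 heavy chain genes (13 negative), -0.31 over 8 assembly, proteasome and control genes (7 negative), and -0.28 over 9 class II genes (8 negative). Members share cells, promoter modules and in part reads, so they are not independent of each other. In whole liver, fewer cells of a type and less RNA per cell cannot be told apart.

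Groups that did not overlap were found for 7 members whose highest Pak4_KO library lay under their lowest WT library, as was so for 6.06% of all tested genes (13.4% over both directions). These were H2-K1, H2-D1, H2-Q4, H2-Q7, B2m, Psmb8 and Psmb9, all of class I. This holds on CPM, and on TPM the groups of Psmb8 and Psmb9 overlapped. H2-K2 was the only member higher without overlap, where 7.35% of all tested genes were. None of the 9 tested class II members showed groups apart.

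**Figure D2:**
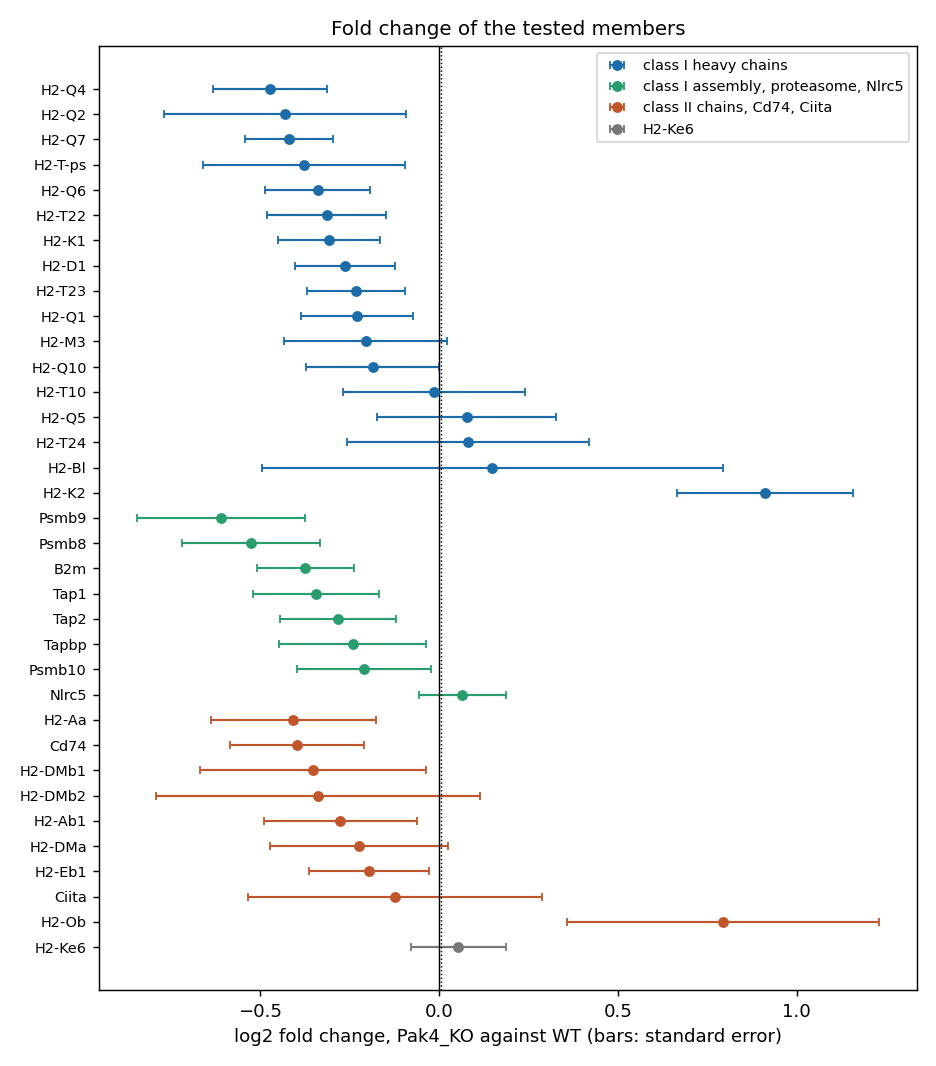
Log2 fold change of Pak4_KO against WT (x axis) for each of the 35 tested members (y axis), with the standard error as bars and colours for the classes. The dotted line is the median of all 16197 tested genes, 0.0045. Most points lie left of 0, and H2-K2 at 0.91 and H2-Ob at 0.79 lie farthest to the right.

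The classical heavy chains H2-K1 and H2-D1, which present peptides to CD8+ T cells, both stood lower in each Pak4_KO library, and neither passed the test. H2-K1 (NCBI gene 14972, chromosome 17, 33996012 to 34000619, GRCm38) stood at 1213, 1139.9 and 1256 CPM in the WT libraries and 1046, 1018 and 854 CPM in the Pak4_KO libraries. The lowest WT library lay above the highest Pak4_KO library, and Pak4_KO replicate 3 was the lowest of all. The log2 fold change was -0.31 ± 0.14 (SE) with adjusted p = 0.643, or 80.8% of the WT level, with a 95% interval of -0.63 to 0.019 from the standard error. H2-D1 (NCBI gene 14964, chromosome 17, 35263094 to 35267497) stood at 665, 617 and 606 CPM in the WT libraries and 554, 563 and 456 CPM in the Pak4_KO libraries, again without overlap and with Pak4_KO replicate 3 lowest, a log2 fold change of -0.26 ± 0.14 (SE) with adjusted p = 0.698. Both genes kept their sign in each of 16 alternatives, H2-K1 between -0.36 and -0.22 and H2-D1 between -0.32 and -0.17, and neither was called in any.

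The Qa genes of the H2-Q region, which encode nonclassical class I chains, lie in one region of chromosome 17 and included the most negative heavy chain value. H2-Q4 (NCBI gene 15015, chromosome 17, 35379617 to 35384674) stood at 54.6, 43.8 and 38.3 CPM in the WT libraries and 35.5, 33.5 and 29.6 CPM in the Pak4_KO libraries, a log2 fold change of -0.47 ± 0.16 (SE) with adjusted p = 0.445. Its groups did not overlap, though WT replicate 3 lay close to Pak4_KO replicate 1. H2-Q7 (NCBI gene 15018, chromosome 17, 35439140 to 35443773), a gene of the Qa-2 molecule, stood at 38.5, 40.1 and 40.3 CPM in the WT libraries and 30.2, 31.8 and 26.8 CPM in the Pak4_KO libraries. Its WT libraries were close together and all above the Pak4_KO libraries, and its log2 fold change of -0.42 ± 0.12 (SE) with adjusted p = 0.316 had the smallest standard error among the members. H2-Q6, the other Qa-2 gene here, stood at 45.2, 45.1 and 34.2 CPM in the WT libraries and 33.1, 34.8 and 30.4 CPM in the Pak4_KO libraries, and WT replicate 3 lay below Pak4_KO replicate 2, with a log2 fold change of -0.34 ± 0.15 (SE) with adjusted p = 0.608. These genes share sequence: of all 100-base stretches of the longest H2-Q7 transcript, 13.5% occur unchanged in a transcript of another gene, and 10.8% of those of H2-Q6. How reads that match several places were counted is not given in the sources used here, so the single values are uncertain. Summed over H2-Q4, H2-Q6 and H2-Q7, the level was 138, 129 and 113 CPM in the WT libraries and 98.8, 100.2 and 86.7 CPM in the Pak4_KO libraries, with no overlap and a log2 ratio of -0.41. The sum does not settle the sharing, since the gene that shares most stretches with H2-Q7 is H2-Q10 (6.57%, against 3.99% for H2-Q6), which is outside it and far more abundant.

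H2-Q10, the secreted class I gene, showed no such separation of the groups. H2-Q10 (NCBI gene 15007, chromosome 17, 35470089 to 35474563) stood at 1246, 1726 and 1261 CPM in the WT libraries and 1355, 1323 and 1045 CPM in the Pak4_KO libraries. Pak4_KO replicates 1 and 2 lay inside the WT range and replicate 3 below it, with WT replicate 2 far above the rest. Its log2 fold change was -0.18 ± 0.19 (SE) with adjusted p = 0.885, and it moved to -0.014 without WT replicate 2. Relative to H2-K1, the TPM of H2-Q10 was 1.16, 1.71 and 1.14 in the WT libraries and 1.47, 1.47 and 1.39 in the Pak4_KO libraries, so the groups overlapped on the ratio too, and a difference between these genes was not tested. The remaining H2-Q genes were H2-Q1 at a log2 fold change of -0.23 (SE 0.16), H2-Q2 at -0.43 (SE 0.34) and H2-Q5, a transcribed pseudogene, at 0.077 (SE 0.25), each with overlapping groups.

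Of the H2-T and H2-M genes, all tested members had overlapping groups. H2-T23, the Qa-1 gene, stood at 155, 165 and 159.8 CPM in the WT libraries and 156, 134 and 118 CPM in the Pak4_KO libraries, where Pak4_KO replicate 1 was above the lowest WT library, a log2 fold change of -0.23 ± 0.14 (SE) with adjusted p = 0.737. H2-T22, a nonclassical chain recognised by γδ T cells, stood at 63.1, 76.5 and 59.8 CPM in the WT libraries and 63.1, 53.6 and 43.7 CPM in the Pak4_KO libraries, with the same library in the WT range and Pak4_KO replicate 3 lowest, a log2 fold change of -0.31 ± 0.17 (SE) with adjusted p = 0.698. H2-T10, a transcribed pseudogene by RefSeq's annotation that shares stretches with H2-T22, had one of -0.013 (SE 0.25). H2-T24 was at 0.081 (SE 0.34), H2-T-ps at -0.38 (SE 0.28), H2-Bl at 0.15 (SE 0.64) on 49 WT and 57 Pak4_KO reads, and H2-M3, which presents formylated bacterial peptides, at -0.21 (SE 0.23). H2-T22, H2-T23 and H2-T24 overlap a further annotated gene with 29 reads in all. The signs of H2-T10, H2-T24, H2-Bl and H2-Q5 turn under other settings.

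H2-K2 was the only tested heavy chain gene whose Pak4_KO libraries all lay above its WT libraries, and the main test did not call it. H2-Bl, H2-T24 and H2-Q5 also had log2 fold changes above 0, with overlapping groups. It is a transcribed pseudogene of the K region, NCBI gene 630499, chromosome 17, 33974659 to 33978791, in the same region as H2-K1. H2-K2 had 150, 190 and 127 reads in the WT libraries and 301, 342 and 252 in the Pak4_KO libraries, or 3.79, 3.998 and 2.52 CPM in the WT libraries and 7.102, 7.24 and 5.04 CPM in the Pak4_KO libraries. Each Pak4_KO library lay above each WT library, with WT replicate 3 lowest and Pak4_KO replicate 3 nearest to WT. The log2 fold change was 0.91 ± 0.25 (SE) with adjusted p = 0.272, 1.88-fold, with a 95% interval of 0.35 to 1.48, and the DESeq2 Wald test gave an adjusted p of 0.0456. It stayed positive in all 16 alternatives (0.73 to 1.06), with DESeq2 the only call, and the other adjusted p-values reached 0.579. Per 1000 reads of H2-K1, H2-K2 had 3.12, 3.51 and 2.01 in the WT libraries and 6.79, 7.11 and 5.901 in the Pak4_KO libraries. Of the 100-base stretches of its longest transcript, 1.98% occur in another gene's transcript, mainly H2-T22. The longest H2-K1 transcript shares no stretch with another gene, which does not cover other H2-K1 transcripts. The read length is not given in the sources used here. H2-Ke6, a short-chain dehydrogenase gene near H2-K1, stood at 25.99, 26.1 and 27.4 CPM in the WT libraries and 31.1, 24.8 and 26.5 CPM in the Pak4_KO libraries with overlap, a log2 fold change of 0.054 ± 0.13 (SE) with adjusted p = 0.968. Of its 100-base stretches 91.96% occur unchanged in Gm20427, so the value of H2-Ke6 depends on how such reads were counted.

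The light chain gene B2m had the separation of the classical heavy chains. B2m (NCBI gene 12010, chromosome 2, 122147687 to 122153082) stood at 826, 751 and 802 CPM in the WT libraries and 658, 628 and 551 CPM in the Pak4_KO libraries. All Pak4_KO libraries were below all WT libraries, with Pak4_KO replicate 3 lowest, and the log2 fold change was -0.37 ± 0.13 (SE) with adjusted p = 0.488, with a 95% interval of -0.68 to -0.065. Summed heavy chain TPM per B2m TPM was 2.3003, 2.83 and 2.35 in the WT libraries and 2.73, 2.802 and 2.596 in the Pak4_KO libraries, with overlapping groups. B2m kept its sign in all 16 alternatives, between -0.43 and -0.29, and no 100-base stretch of it occurs in another gene's transcript.

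**Figure D3:**
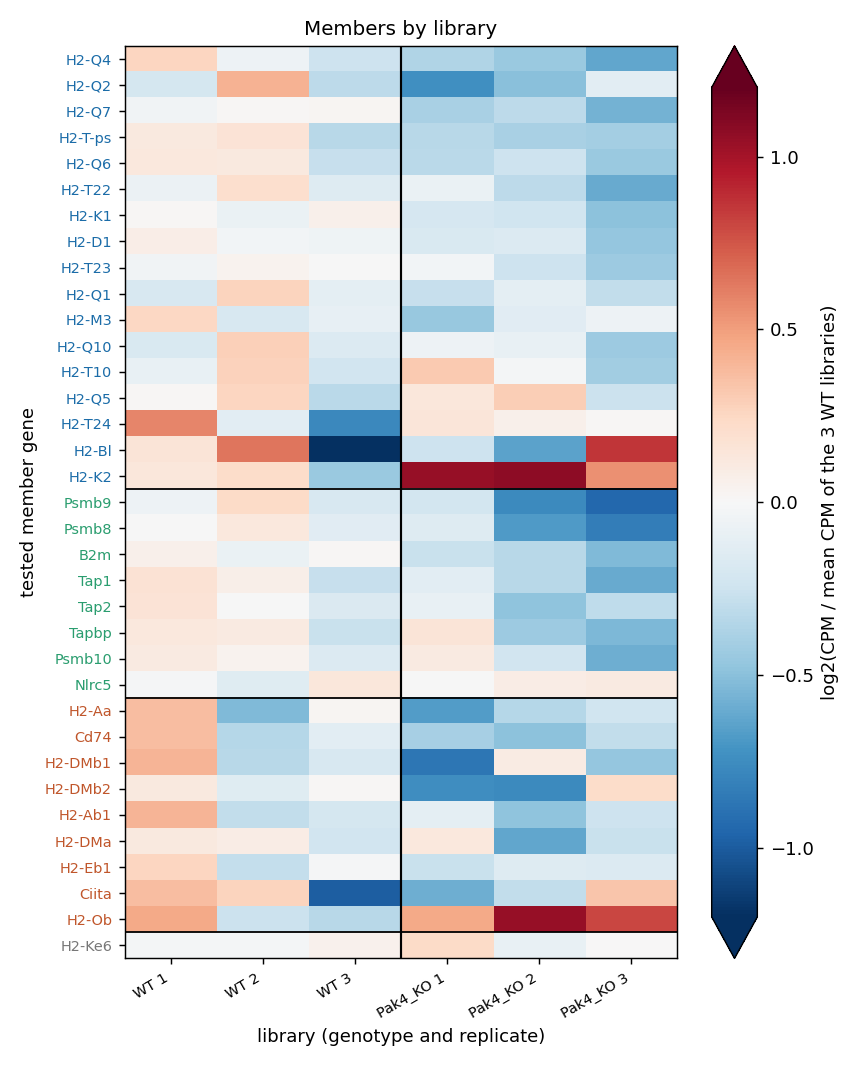
Log2 of CPM over the mean CPM of the 3 WT libraries (colour, saturating at both ends of the scale) for each tested member (rows, by class) and library (columns). Pak4_KO replicate 3 is the lowest library for H2-K1, H2-D1, B2m, Psmb8 and Psmb9, Pak4_KO replicate 1 is near WT for Tapbp and Psmb10, and WT replicate 1 is the highest for Cd74, H2-Aa, H2-Ab1 and H2-Eb1.

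Psmb8 and Psmb9, of the interferon-inducible proteasome, gave the most negative values of all tested members, with Pak4_KO replicate 1 close to WT. Psmb9, the β1i subunit (NCBI gene 16912, chromosome 17, 34182030 to 34187330), stood at 6.76, 8.27 and 6.18 CPM in the WT libraries and 6.06, 4.17 and 3.68 CPM in the Pak4_KO libraries, a log2 fold change of -0.61 ± 0.24 (SE) with adjusted p = 0.531. Psmb8, the β5i subunit (NCBI gene 16913, chromosome 17, 34198195 to 34201454), stood at 28.5, 31.1 and 25.98 CPM in the WT libraries and 25.7, 17.8 and 16.04 CPM in the Pak4_KO libraries, a log2 fold change of -0.52 ± 0.19 (SE) with adjusted p = 0.500. For both genes Pak4_KO replicate 1 lay just under the lowest WT library on CPM, and replicates 2 and 3 lay well below that library. On TPM, Pak4_KO replicate 1 lay above WT replicate 3, at 36.2 against 34.3 TPM for Psmb8 and 12.6 against 11.1 TPM for Psmb9. Psmb10, the β2i subunit encoded on chromosome 8, stood at 28.996, 27.7 and 23.99 CPM in the WT libraries and 28.95, 22.9 and 17.9 CPM in the Pak4_KO libraries, where Pak4_KO replicate 1 was inside the WT range, a log2 fold change of -0.21 ± 0.19 (SE) with adjusted p = 0.861. Without Pak4_KO replicate 1 the values were -0.85 for Psmb9, -0.75 for Psmb8 (adjusted p = 0.144) and -0.40 for Psmb10, none of them called. The constitutive counterparts Psmb5, Psmb6 and Psmb7 together stood at 228, 218 and 264 CPM in the WT libraries and 226, 268 and 212 CPM in the Pak4_KO libraries, with overlapping groups and a log2 ratio of -0.0098. Psmb8 TPM per Psmb5 TPM was 0.385, 0.552 and 0.279 in the WT libraries and 0.385, 0.193 and 0.203 in the Pak4_KO libraries, and Psmb9 per Psmb6 was 0.105, 0.120 and 0.0804 in the WT libraries and 0.0945, 0.0600 and 0.0595 in the Pak4_KO libraries. On these ratios Pak4_KO replicates 2 and 3 were below every WT library, and replicate 1, which lay just under them on CPM, was inside the WT range.

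In the peptide transporter and loading genes, Pak4_KO replicate 1 again stood above the other Pak4_KO libraries. Tap1, which shares its promoter region with Psmb9, stood at 31.2, 29.02 and 22.9 CPM in the WT libraries and 25.3, 21.9 and 18.2 CPM in the Pak4_KO libraries, a log2 fold change of -0.34 ± 0.18 (SE) with adjusted p = 0.680. Tap2, its partner (NCBI gene 21355, chromosome 17, 34204479 to 34216321), stood at 19.2, 17.1 and 15.2 CPM in the WT libraries and 16.2, 12.3 and 13.9 CPM in the Pak4_KO libraries, a log2 fold change of -0.28 ± 0.16 (SE) with adjusted p = 0.728. Tapbp, the tapasin gene, stood at 61.5, 60.9 and 46.8 CPM in the WT libraries and 62.7, 41.6 and 38.9 CPM in the Pak4_KO libraries, where Pak4_KO replicate 1 was above every WT library, a log2 fold change of -0.24 ± 0.20 (SE) with adjusted p = 0.847. The groups of all of these overlapped: Pak4_KO replicate 1 was within or above the WT range, while Pak4_KO replicates 2 and 3 lay below the lowest WT library for each gene. Among WT libraries, replicate 3 was the lowest for Tap1, Tap2 and Tapbp.

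The class I transactivator did not share this direction. Nlrc5 (NCBI gene 434341, chromosome 8, 94434335 to 94527272) stood at 65.4, 59.6 and 72.6 CPM in the WT libraries and 65.7, 70.2 and 70.8 CPM in the Pak4_KO libraries, a log2 fold change of 0.065 ± 0.12 (SE) with adjusted p = 0.952 with a 95% interval of -0.21 to 0.34. The Pak4_KO libraries lay inside the WT range, and the sign turned without WT replicate 2. Ciita, the class II transactivator (NCBI gene 12265, chromosome 16, 10480014 to 10531064), had 232 WT and 225 Pak4_KO reads, at 2.25, 2.08 and 0.875 CPM in the WT libraries and 1.16, 1.42 and 2.18 CPM in the Pak4_KO libraries. WT replicate 3 was lowest and the groups overlapped widely, with a log2 fold change of -0.12 ± 0.41 (SE) with adjusted p = 0.979 whose sign turned in 4 alternatives. Ciita overlaps Dexi, which has 773 reads, and the strand setting of the counting is not given.

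Class II genes had overlapping groups, and their lower mean in Pak4_KO shrank without WT replicate 1. Cd74, the invariant chain (NCBI gene 16149, chromosome 18, 60803849 to 60812652), stood at 80.3, 48.8 and 56.7 CPM in the WT libraries and 46.9, 43.96 and 50.4 CPM in the Pak4_KO libraries, a log2 fold change of -0.40 ± 0.19 (SE) with adjusted p = 0.648. H2-Aa, the α chain of H2-A (NCBI gene 14960, chromosome 17, 34282744 to 34287823), stood at 33.2, 17.9 and 26.2 CPM in the WT libraries and 16.2, 20.3 and 21.8 CPM in the Pak4_KO libraries, a log2 fold change of -0.41 ± 0.23 (SE) with adjusted p = 0.720. H2-Ab1, its β chain (NCBI gene 14961, chromosome 17, 34263227 to 34269418), stood at 20.8, 12.8 and 13.5 CPM in the WT libraries and 14.5, 11.2 and 13.2 CPM in the Pak4_KO libraries, a log2 fold change of -0.28 ± 0.21 (SE) with adjusted p = 0.830. In all 3 genes WT replicate 1 was the highest library, while WT replicate 2 lay among the Pak4_KO libraries. H2-Eb1, the β chain of H2-E, stood at 18.5, 12.7 and 15.3 CPM in the WT libraries and 12.9, 13.9 and 13.9 CPM in the Pak4_KO libraries in the same order of WT libraries, a log2 fold change of -0.19 ± 0.17 (SE) with adjusted p = 0.851. Summed over the H2- rows of class II, the level was 81.7, 50.4 and 61.7 CPM in the WT libraries and 50.1, 52.3 and 55.6 CPM in the Pak4_KO libraries, a log2 ratio of -0.29 that moved to -0.090 without WT replicate 1 and to -0.45 without WT replicate 2. Without WT replicate 1 the median over the tested class II genes moved to -0.11, with 7 of 9 negative. Cd74 TPM per summed class II chain TPM was 1.01, 1.02 and 0.928 in the WT libraries and 0.987, 0.866 and 0.934 in the Pak4_KO libraries, with overlapping groups.

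The peptide exchange genes of class II were scarcer. H2-DMa, H2-DMb1 and H2-DMb2 encode H2-DM, which removes the invariant chain fragment from class II. Together they stood at 8.71, 6.76 and 6.34 CPM in the WT libraries and 5.899, 6.12 and 5.82 CPM in the Pak4_KO libraries, without overlap on CPM and with overlap on TPM. Singly all 3 overlapped, at log2 fold changes of -0.22 (SE 0.25) for H2-DMa, -0.35 (SE 0.32) for H2-DMb1 and -0.34 (SE 0.45) for H2-DMb2. H2-DMa overlaps Brd2, which has 32410 reads against its own 895, and H2-DMb1 and H2-DMb2 share unchanged stretches with each other, so their values are uncertain. H2-Ob, a chain of H2-O, which restrains H2-DM in B cells, went the other way. It had 15, 11 and 11 reads in the WT libraries and 16, 27 and 24 in the Pak4_KO libraries, a log2 fold change of 0.79 ± 0.44 (SE) with adjusted p = 0.711, with WT replicate 1 at the level of Pak4_KO replicate 1.

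The remaining 16 members were too low to be tested, and 12 of them had 0 reads in all 6 libraries. These 12 are H2-T3, H2-Ea-ps and 10 H2-M genes: H2-M1, H2-M9, H2-M10.1, H2-M10.2, H2-M10.3, H2-M10.4, H2-M10.5, H2-M10.6, H2-M10.5-ps1 and H2-M11. A count of 0 allows up to 3 reads, or 0.0596 to 0.0757 CPM per library, for counting error only. H2-Ea-ps carries the pseudogene name of the class II E α chain, and C57BL/6 mice are known to make no such chain, while H2-Eb1, the gene of its partner chain, had reads in each library. The 4 others had few reads. H2-M2 had 0 reads in each WT library and 0, 4 and 11 in the Pak4_KO libraries. H2-Oa, the partner of H2-Ob, had 0, 0 and 4 in WT and 0, 8 and 16 in Pak4_KO, and H2-Eb2 had 4, 0 and 0 in WT and 11, 0 and 6 in Pak4_KO. H2-M5 had 2 reads, both in WT replicate 2. Each of these genes had 0 reads in at least 1 Pak4_KO library, and no fold is given.

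Other genes of the presentation pathway, in 7 lists, gave 0 calls among 55 tested genes. Of the peptide loading and trimming genes, 7 of 8 were negative (median -0.15), and the 2 with the smallest p were Pdia3, the thiol oxidoreductase of the loading complex, at -0.28 (SE 0.14) and the chaperone Calr at -0.24 (SE 0.19). Of the class II endosome genes, 7 of 8 were negative (median -0.16), with the cathepsin genes Ctsb at -0.26 (SE 0.13) and Ctss at -0.26 (SE 0.16). The constitutive proteasome and activator genes lay nearer to 0 (5 of 8 negative, median -0.038), with Psma7 at -0.18 (SE 0.15) and Psme2, a subunit of the interferon-inducible activator, at -0.17 (SE 0.14). The list of class I and II transcription factors had 8 of 13 negative (median -0.12). Its smallest p was that of Irf2, at 18.9, 23.4 and 23.3 CPM in the WT libraries and 13.1, 15.05 and 19.99 CPM in the Pak4_KO libraries and a log2 fold change of -0.44 ± 0.19 (SE) with adjusted p = 0.582, followed by the NF-kB subunit gene Rela at -0.23 (SE 0.14). Interferon gamma receptor and signalling genes were split (3 of 6 negative), with the kinase genes Jak1 at -0.28 (SE 0.13) and Jak2 at -0.34 (SE 0.17). Class I-like genes outside the H2- names had 6 of 7 negative (median -0.20), with Azgp1 at -0.29 (SE 0.15) and the lipid-presenting Cd1d1 at -0.24 (SE 0.13).

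The costimulation list held values on both sides. Cd86, a ligand of CD28 on antigen-presenting cells, stood at 8.15, 8.54 and 6.699 CPM in the WT libraries and 5.59, 5.86 and 4.06 CPM in the Pak4_KO libraries, below in each Pak4_KO library, a log2 fold change of -0.59 ± 0.20 (SE) with adjusted p = 0.463. Cd80, the other CD28 ligand, was scarce and lay the other way, at 0.379, 0.484 and 0.179 CPM in the WT libraries and 0.519, 0.826 and 0.960 CPM in the Pak4_KO libraries and a log2 fold change of 1.15 ± 0.47 (SE) with adjusted p = 0.569 on 47 WT and 109 Pak4_KO reads. Of the 5 tested genes of this list 4 were negative and none was called.

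Summed levels place the classes beside markers of the cells that could carry them. Summed class I heavy chain CPM was 3526, 3905 and 3494 CPM in the WT libraries and 3317, 3239 and 2645 CPM in the Pak4_KO libraries, without overlap, a log2 ratio of -0.25 that moved to -0.15 without Pak4_KO replicate 3. On the TPM scale the ratio was -0.17 and the groups overlapped. Summed Kupffer cell and macrophage markers were at 531 to 677 CPM in WT and 419.8 to 521 CPM in Pak4_KO, with 12 of 12 tested markers negative and a median log2 fold change of -0.24. Neutrophil markers were at 32.6 to 59.3 CPM in WT and 20.97 to 26.6 CPM in Pak4_KO (7 of 7 negative, median -0.79), and T and NK cell markers at 4.21 to 6.08 CPM in WT and 2.14 to 2.78 CPM in Pak4_KO (6 of 6 tested negative, median -0.83). Marker sums of cells that make class II differed in direction, with macrophage markers lower on CPM and dendritic cell markers higher. The latter were at 9.92 to 11.8 CPM in WT and 12.9 to 19.2 CPM in Pak4_KO (6 of 7 tested positive, median 0.53). Zbtb46, whose groups overlapped, gave 8.88 of the 19.2 CPM in Pak4_KO replicate 3. B cell markers were at 1.03 to 2.45 CPM in WT and 1.71 to 2.41 CPM in Pak4_KO (2 of 3 tested positive). Endothelial markers, of cells that also carry class II in liver, were at 312 to 381 CPM in WT and 316 to 443 CPM in Pak4_KO (8 of 8 positive), and cholangiocyte and stellate cell markers at 40.8 to 59.5 CPM in WT and 54.3 to 83.2 CPM in Pak4_KO and at 191 to 295 CPM in WT and 185 to 354 CPM in Pak4_KO. Hepatocyte markers were at 43082 to 57135 CPM in WT and 53660.3 to 61359 CPM in Pak4_KO, with 4 of 8 negative. On the TPM scale the macrophage marker sums overlapped and the hepatocyte marker sums were higher in each Pak4_KO library. WT replicate 1, the library highest in class II, was also highest in neutrophil and in T and NK cell markers. In macrophage markers it was highest on TPM (560 against 545 TPM in WT replicate 2) and below WT replicate 2 on CPM (650 against 677 CPM). In B cell markers it lay just above Pak4_KO replicate 1 on CPM and below it on TPM (1.36 against 1.53 TPM). In summed dendritic cell markers WT replicate 1 was the lowest library on CPM (9.92 CPM), though it was the highest for Itgax of that list. No marker was called, no list had a marker at 0 reads in all 6 libraries, and the part of these cell types in the values of the members was not tested.

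**Figure D4:**
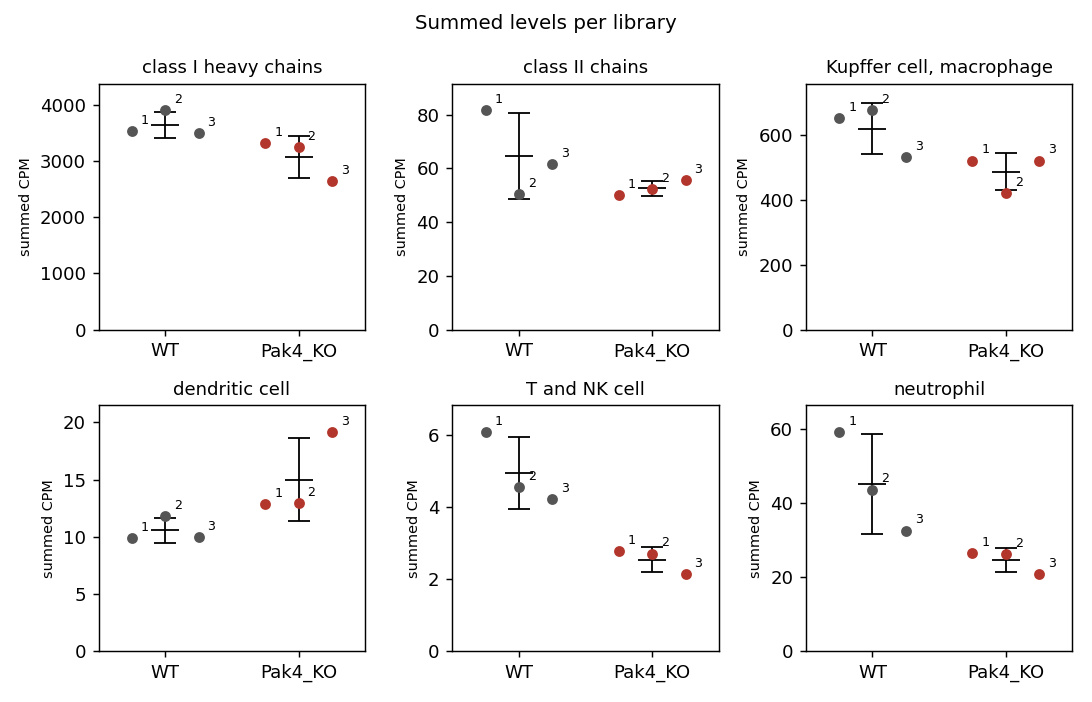
Summed CPM per library (y axis, from 0) for class I heavy chains, class II chains and 4 marker lists, with points numbered by replicate and the mean and SD (n = 3) as bars. Class I heavy chains, macrophage, neutrophil and T and NK cell markers are lower in each Pak4_KO library, dendritic cell markers are higher, and class II is spread widely in WT.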

How the data were processed

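RNA-seq libraries (3 WT and 3 Pak4_KO, from liver) were prepared with a stranded mRNA kit, per the labels' protocols. Reads relate to mm10, the build in the submitters' processing notes, which list StringTie 2.1.3b, Bowtie2 2.3.4.1, HISAT2 2.1.0, FastQC 0.11.7 and bcl2fastq 2.20.0 without their order. The sources used here do not give the annotation release, how strand was used in counting, or how reads with several matches were handled. The authors deposited whole-number read counts per gene, not normalized, and per the file headers also TPM and FPKM. Deposited TPM served to compare genes and in alternatives, and the deposited FPKM were not used. More genes had 2 reads than 1 read in each library, which leaves it unclear if pairs were counted as 2.

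The main test was edgeR 4.0.16 (R 4.3.3) on the counts of all 6 libraries, after filterByExpr (16197 genes) and TMM scaling, as a two-sided quasi-likelihood F-test adjusted by Benjamini-Hochberg over all tested genes. Each SE is the size of the log2 fold change over the root of its F value, and 95% intervals use the test's degrees of freedom and are not adjusted for the number of genes. It was tested on simulated data. Other runs used other scalings and filters, DESeq2 1.42.0, limma 3.58.1 (voom on counts, trend on log2(TPM + 1) and log2(TPM + 0.1)), a replicate block, or left out 1 library. Within groups, chi-square per gene between libraries was 64.2 to 129.6, far above sampling noise.

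All tested members are named, and from each pathway list the called genes or else the 2 of smallest p. The members and lists were chosen with earlier results of these data known. All 51 members matched RefSeq (GRCm38.p6, the assembly of mm10). Shared stretches of 100 bases were counted in GENCODE M21 transcripts.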

Additional observations from a re-analysis of the deposited data

How the results depend on the processing

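Of 559 member values under the alternatives, 542 kept their sign and stayed uncalled, 1 became called and 16 turned sign. The class I heavy chain count moved from 0 to 1 with the DESeq2 Wald test, by H2-K2 (0.91), and the counts of called assembly, class II and pathway genes were 0 in each alternative run. Over all genes, 76 calls became 44 with at least 10 reads in every library, 334 with the DESeq2 Wald test, and 37 to 81 with a library left out; the cause was not tested. The sign of Ciita turned with log2(TPM + 0.1) (0.0087), and that of H2-T10 with library size alone (0.029), log2(TPM + 1) (0.038) and log2(TPM + 0.1) (0.052). With a library left out, the signs of 7 genes turned. Ciita ran from -0.44 to 0.10 (positive without WT replicate 1 or 2 or Pak4_KO replicate 1), H2-T10 from -0.20 to 0.15 (positive without WT replicate 2 or Pak4_KO replicate 3), and H2-Bl from -0.42 to 0.64 (negative without WT replicate 3 or Pak4_KO replicate 3). H2-Q5 ran from -0.060 to 0.22 (negative without WT replicate 3 or Pak4_KO replicate 2), H2-T24 from -0.19 to 0.48 (negative without WT replicate 3), Nlrc5 from -0.0020 to 0.14 (negative without WT replicate 2) and H2-Ke6 from -0.043 to 0.12 (negative without Pak4_KO replicate 1). Library size alone moved the median of all genes to 0.056 and log2(TPM + 0.1) to 0.082. Deviations of libraries with the same replicate number correlated at 0.067, -0.20 and 0.15, and those with different numbers at -0.24 to 0.19. With so few libraries this shows no pairing by number and cannot exclude it. With the replicate block 73 genes and 0 members were called, with a heavy chain median of -0.24.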

Other observations

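Among markers of antigen-presenting cells, 2 untested genes were listed with 0 reads in every WT library and with reads in every Pak4_KO library. Of 9006 untested genes with reads, 82 (0.911%) showed this pattern. The genes named here were chosen after their values were seen. Xcr1, the chemokine receptor of conventional type 1 dendritic cells, had 4, 12 and 14 reads in the Pak4_KO libraries. Cd209a, a lectin of other dendritic cells, had 12, 11 and 9. Clec9a, also of type 1 dendritic cells and better counted, stood at 2.75, 3.43 and 4.17 CPM in the WT libraries and 4.37, 4.95 and 5.64 CPM in the Pak4_KO libraries, higher in each Pak4_KO library, with an edgeR log2 fold change of 0.53 ± 0.22 (SE) with adjusted p = 0.582. Itgax, on the same dendritic cell list, lay the other way with overlapping groups, at 2.196, 1.28 and 0.696 CPM in the WT libraries and 0.967, 1.14 and 1.68 CPM in the Pak4_KO libraries and a log2 fold change of -0.13 (SE 0.44). On the side of the cells that read class II, Cd4 had 32, 60 and 49 reads in the WT libraries and 18, 6 and 17 in the Pak4_KO libraries, a log2 fold change of -1.77 ± 0.47 (SE) with adjusted p = 0.265, though macrophages and dendritic cells can carry it too. Summed class II chain transcript, by contrast, was not higher in the Pak4_KO libraries (81.7, 50.4 and 61.7 CPM in the WT libraries and 50.1, 52.3 and 55.6 CPM in the Pak4_KO libraries).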
